A study of Mus musculus with 53 samples.

Results

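The globins described here are the haemoglobin chain genes Hba-a1, Hba-a2, Hbb-b1 and Hbb-b2, the myoglobin gene Mb and the cytoglobin gene Cygb, together with Alas2, the red cell enzyme that starts the making of haem. They were chosen by name as the rows of the deposited expression table whose symbol is on this list, and 7 of 7 were found among 34306 genes. The table gives each gene 1 transcript, ENSMUST00000093209 for Hba-a1, ENSMUST00000093207 for Hba-a2, ENSMUST00000023934 for Hbb-b1, ENSMUST00000098192 for Hbb-b2, ENSMUST00000066337 for Alas2, ENSMUST00000169226 for Mb and ENSMUST00000021166 for Cygb, with lengths from 554 bases for Hba-a2 to 2331 bases for Cygb. The table holds 12 sequencing libraries of adult mouse hearts, and each gene carries a level in RPKM, its reads divided by transcript length and by the depth of the library. An input library is made from total cytoplasmic RNA. A TRAP library is made by translating ribosome affinity purification, from the RNA that comes down with tagged ribosomes. The tag is switched on by Cre recombinase.

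All mice carried the tag. In CAG mice, per the labels of an earlier deposit under the same names, Cre is active in all lineages, and in Tie2 mice in endothelial cells. CAG hearts after banding, a ligature that narrows the ascending aorta, gave 2 TRAP and 2 input libraries. CAG hearts after sham surgery, the same operation without the ligature, also gave 2 TRAP and 2 input libraries. Tie2 hearts without surgery gave 1 TRAP and 1 input library, and CAG hearts without surgery 1 TRAP and 1 input library. A library here is 1 column of the deposited values. By name, each column matches 2 deposited samples, with titles ending in l1 and l2, which the columns do not tell apart. The operated mice were male, and the sex of the others is not given. The earlier deposit names a mixed 129/C57BL background, and the background of the mice used here is not given. RNA was pooled before the libraries were made, so the spread between 2 libraries of a group may be technical, and p-values measure only that spread. In bulk RNA such as this, fewer cells of a type and less RNA per cell cannot be told apart.

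Globins are proteins that hold oxygen on a haem group. Haemoglobin fills red cells and pairs alpha chains with beta chains, and Alas2 is the form of aminolevulinate synthase that red cell precursors use. Young red cells that have lost their nucleus still hold haemoglobin RNA, and blood left in a heart brings it into the tissue's RNA. Myoglobin stores oxygen in heart and skeletal muscle fibres, and cytoglobin is found in fibroblasts and other connective tissue and vessel wall cells.

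The DNA just before the transcription start is shown for an alpha chain gene, the haem enzyme and the muscle globin. The first 2 are red cell genes and the third is a muscle gene. The sequences are from RefSeq on GRCm38.p6, 250 bases before the start, read 5′ to 3′ on the gene's strand. Capitals mark GATAA, the core that GATA factors bind, CACCC, the core that Krüppel-like factors bind, and TATAA, each on either strand. Where matches touch or overlap, the capitals run on. The windows are chr11:32283422-32283671 (plus strand) for Hba-a1, chrX:150547167-150547416 (plus strand) for Alas2 and chr15:77022788-77023037 (minus strand) for Mb. For Mb the table lists 3 starts, and the upstream start of the neighbouring pair is shown.
Hba-a1: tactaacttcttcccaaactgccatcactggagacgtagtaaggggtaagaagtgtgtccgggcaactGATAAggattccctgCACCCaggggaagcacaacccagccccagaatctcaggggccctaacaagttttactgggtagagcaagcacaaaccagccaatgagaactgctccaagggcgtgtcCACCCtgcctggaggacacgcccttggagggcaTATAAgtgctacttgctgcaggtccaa
Alas2: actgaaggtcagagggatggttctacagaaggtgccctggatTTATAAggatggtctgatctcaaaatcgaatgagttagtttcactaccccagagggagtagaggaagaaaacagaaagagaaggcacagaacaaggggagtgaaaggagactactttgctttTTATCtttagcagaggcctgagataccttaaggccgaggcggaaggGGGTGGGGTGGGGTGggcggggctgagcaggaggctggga
Mb: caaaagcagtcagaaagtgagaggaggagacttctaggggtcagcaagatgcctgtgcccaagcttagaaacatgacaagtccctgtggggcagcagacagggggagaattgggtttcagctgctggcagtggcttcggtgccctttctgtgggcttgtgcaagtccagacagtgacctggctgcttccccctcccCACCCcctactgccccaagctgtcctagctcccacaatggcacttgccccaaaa

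The Hba-a1 window held 1 GATAA, 2 CACCC and 1 TATAA, the last beginning 27 bases before the start. The Alas2 window held 1 GATAA, 3 CACCC in a row on the opposite strand within its last 40 bases, and a TTATAA that matches TATAA on both strands. The Mb window held 1 CACCC and neither of the other motifs, which says only that those letters are not in this window. Of 32851 windows of the same length, 22.6% held GATAA, 52.0% CACCC and 22.8% TATAA. The E-box letters CANNTG were searched as well, with 1 match before Hba-a1, 0 before Alas2 and 2 before Mb, and 66.2% of all windows held it. The windows of Hba-a1 and Hba-a2 shared an unbroken run of 297 of the table's 300 bases, set off by 3 bases. Reads of such near-identical copies, alpha with alpha and beta with beta, may have been split or dropped in the authors' counting, and single chain levels are uncertain for that reason. The promoter table matched 4 of the 7 genes.

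The libraries held between 26568988 and 94878619 reads, recovered from the RPKM values. In the Tie2 TRAP library, 12 of 12 endothelial markers were more than 2-fold above Tie2 input and 12 of 12 cardiomyocyte markers more than 2-fold below it, on the log2(RPKM + 1) scale. The macrophage and leukocyte markers were above it in 9 of 9, and summed to 2698 RPKM in Tie2 TRAP against 338 RPKM in Tie2 input. The 2 band TRAP libraries lay farthest apart of any group, with a median absolute log2 difference of 0.20, against 0.08 to 0.11 in the other groups.

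All 7 genes passed the filter on low values, 1 RPKM in at least 2 libraries. Alas2 passed through its input levels, since it was under 1 RPKM in each of the 5 CAG TRAP libraries, so its direction between TRAP and input in CAG hearts was bound to be downward, and its levels there are given as a description with no test. The other 6 genes were above 1 RPKM in all 12 libraries. By level per length, Mb stood highest of the globins in every library. It was 10.0 times Cygb in Tie2 TRAP and between 263 and 1123 times Cygb in the other 11. It ranked between 4 and 11 among all genes in those 11 libraries and 170 in Tie2 TRAP. Its reads made up 2.08 to 2.29% of the reads of operated CAG TRAP libraries and 1.63 to 1.66% of those of operated CAG input libraries. The 4 haemoglobin genes together had fewer reads, from 0.00440% in a band TRAP library to 0.183% in Tie2 input.

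**Figure D1:**
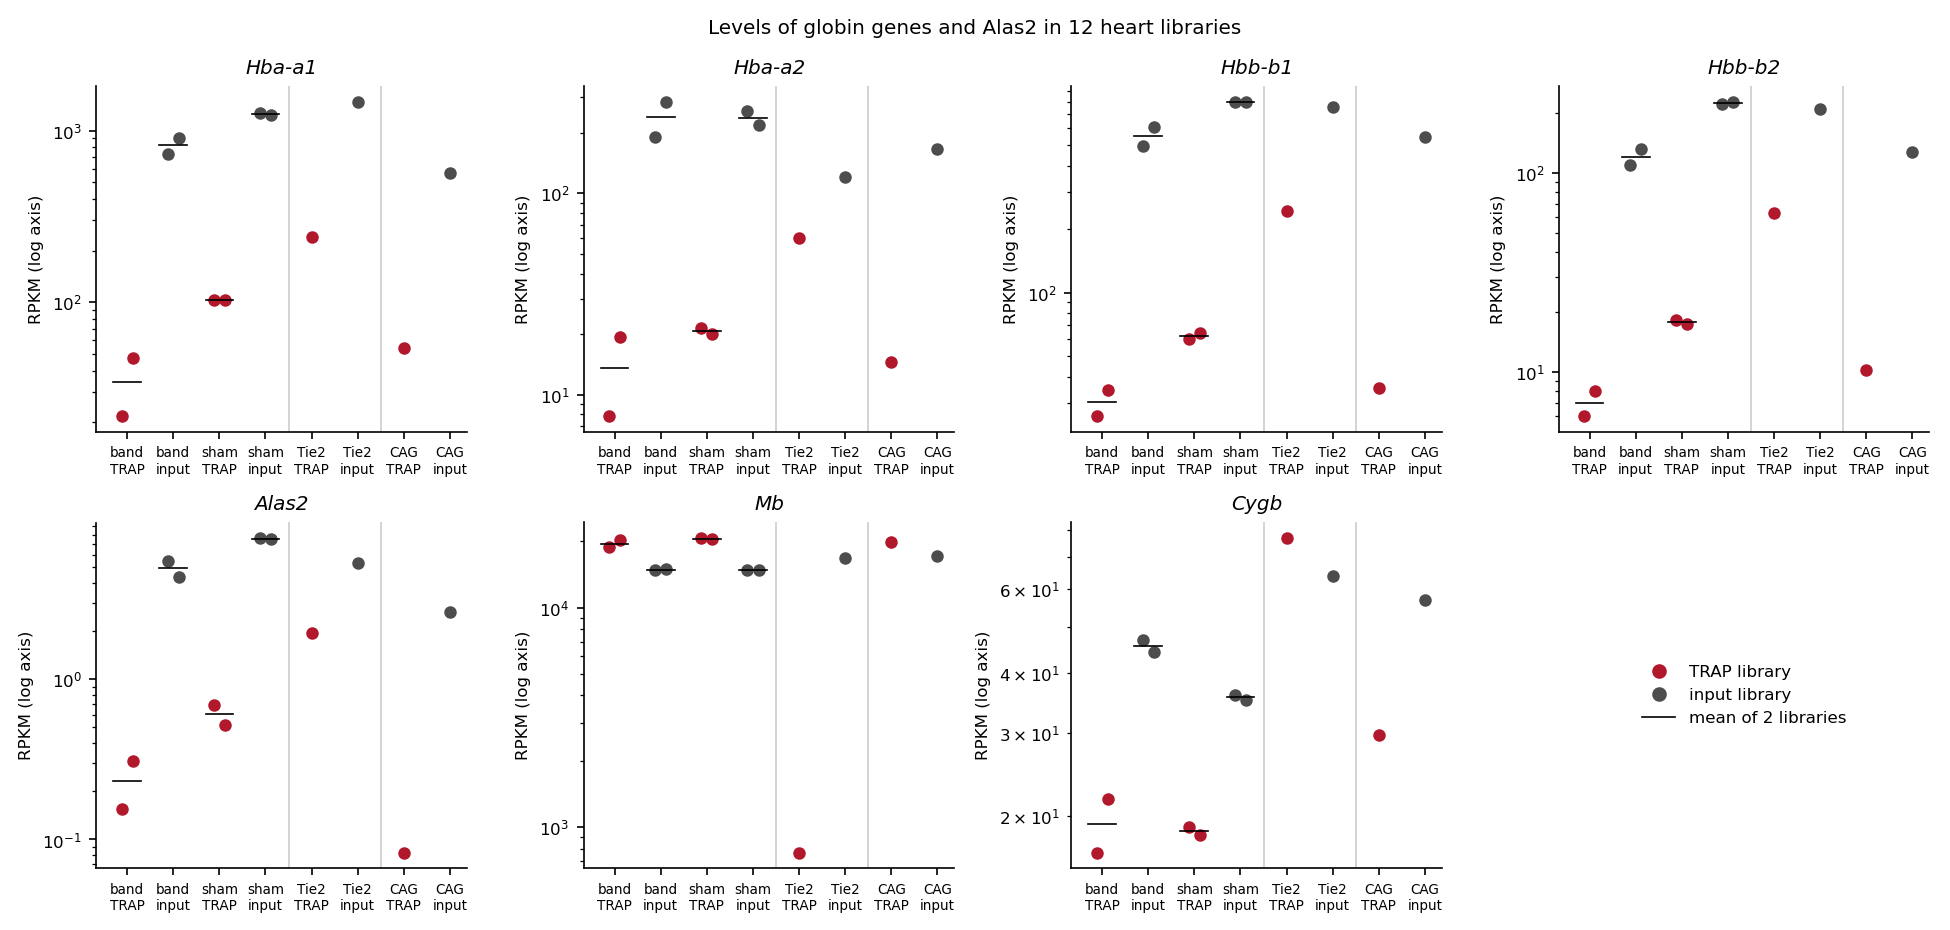
Level of each gene in RPKM (log axis, with its own range in each panel) in each of 12 libraries, red for TRAP and grey for input, with a line at the mean of 2 libraries. The haemoglobin genes and Alas2 lie lower in TRAP than in the matching input throughout, Mb lies higher in TRAP except in Tie2, and Cygb is highest in Tie2 TRAP at 76.8 RPKM.

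TRAP was compared with input in CAG hearts after sham surgery to ask which of these transcripts differed between the ribosome-bound and the total cytoplasmic RNA. The haemoglobin genes were at least 10.9-fold lower in TRAP and Cygb 1.86-fold lower, while Mb was 1.39-fold higher. Tests are by limma, which fits a linear model to log2(RPKM + 1) and shares the estimate of spread over genes, with p-values adjusted over all tested genes. Hba-a1, an alpha chain of haemoglobin, stood at 103 and 103 RPKM in sham TRAP, against 1264 and 1235 RPKM in sham input. Hba-a2, the neighbouring alpha chain copy, stood at 21.5 and 20.2 RPKM in sham TRAP, against 257 and 218 RPKM in sham input. The libraries of the 2 fractions lie an order of magnitude apart and do not overlap for either gene. Hbb-b1, an adult beta chain, stood at 60.2 and 64.6 RPKM in sham TRAP, against 804 and 798 RPKM in sham input. Hbb-b2, also an adult beta chain, stood at 18.2 and 17.5 RPKM in sham TRAP, against 223 and 229 RPKM in sham input. Replicates of a fraction differed far less than the fractions did. On the log2(RPKM + 1) scale the differences were -3.58 (SE 0.31), -3.44 (SE 0.37), -3.66 (SE 0.15) and -3.59 (SE 0.14) in that order, or 12, 10.9, 12.6 and 12-fold lower in TRAP. The limma adjusted p was 0.000580, 0.00107, 3.01e-05 and 2.42e-05 in the same order.

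Alas2 had 50 and 44 reads in sham TRAP, or 0.693 and 0.517 RPKM, against 756 and 502 reads, or 7.59 and 7.46 RPKM, in sham input. The raw ratio of the libraries numbered 1 was 0.0913, with a 95% counting interval of 0.0671 to 0.122. The fractions do not overlap, and the log2 difference of -2.41 understates the ratio because a pseudocount of 1 RPKM is large beside the TRAP level. Mb, the muscle globin, went the other way. It stood at 20678 and 20553 RPKM in sham TRAP, against 14759 and 14887 RPKM in sham input. Both TRAP libraries lay above both input libraries, by 0.48 (SE 0.08) on the log2 scale or 1.39-fold (limma, adjusted p = 0.00470). Cygb, the connective tissue globin, stood at 19.0 and 18.3 RPKM in sham TRAP, against 36.0 and 35.2 RPKM in sham input. It was lower in TRAP without overlap, by 1.86-fold, with a log2 difference of -0.90 (SE 0.12, limma, adjusted p = 0.00230).

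In this comparison, of the 6 genes above 1 RPKM in all libraries, 5 were called lower in TRAP and Mb was called higher. Calls are adjusted p under 0.05, and 39.6% of 11654 tested genes were called, 24.5% lower and 15.1% higher, so a call alone says little and the sizes carry the description. The median of all tested genes was -0.09 on the log2 scale, and 0.395% of genes or fewer had a more negative difference than any of the 4 haemoglobin genes. For Cygb that share was 4.08%, and 88.5% of genes had a lower difference than Mb. With quantile normalization the median of all genes moved by 0.14, and 2053 genes were called higher and 1851 lower. Rescaling without the mitochondrial, haemoglobin and 20 most abundant genes moved it by -0.12, with 1113 called higher and 4079 lower, against 1763 and 2852 as tested. The Mb difference lay between 0.31 and 0.73 over 17 alternatives and was called in each.

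After banding, the 4 haemoglobin genes and Cygb were again called lower in TRAP and Mb higher, where 42.6% of genes were called, 26% lower and 16.6% higher. Hba-a1 stood at 21.7 and 47.3 RPKM in band TRAP, against 731 and 910 RPKM in band input. Hba-a2 stood at 7.85 and 19.4 RPKM in band TRAP, against 191 and 285 RPKM in band input. Neither gene overlaps between fractions, but the 2 band TRAP libraries differed from each other by more than 2-fold, with library 1 the lower. Hbb-b1 stood at 26.0 and 34.4 RPKM in band TRAP, against 498 and 607 RPKM in band input. Hbb-b2 stood at 6.0 and 8.04 RPKM in band TRAP, against 110 and 132 RPKM in band input. The beta chain genes were thus also lower in both TRAP libraries, with less spread. The log2 differences were -4.62 (SE 0.31) for Hba-a1, -4.13 (SE 0.37) for Hba-a2, -4.15 (SE 0.15) for Hbb-b1 and -3.93 (SE 0.14) for Hbb-b2. Limma gave adjusted p values of 0.000189, 0.000474, 1.53e-05 and 1.53e-05 in the same order. Without band TRAP library 1 the Hba-a1 and Hba-a2 differences were -4.08 and -3.52, and without band TRAP library 2 they were -5.17 and -4.73.

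Alas2 had 12 and 30 reads in band TRAP, against 321 and 321 reads in band input, or 0.155 and 0.309 RPKM against 5.51 and 4.36 RPKM. Its log2 difference of -2.26 understates the ratio, because the pseudocount of 1 RPKM is large beside the TRAP level. Mb stood at 18838 and 20288 RPKM in band TRAP, against 14801 and 14971 RPKM in band input. It was higher in TRAP without overlap, by 1.31-fold (log2 difference 0.39, SE 0.08, limma, adjusted p = 0.00837). That call was lost without the filter on low values (limma, adjusted p = 0.0755), with the rescaling (0.20, adjusted p = 0.0957) and without band input library 1 (adjusted p = 0.0574). Cygb stood at 16.8 and 21.8 RPKM in band TRAP, against 46.9 and 44.3 RPKM in band input. All TRAP values were below all input values, by 2.32-fold (log2 difference -1.21, SE 0.12, limma, adjusted p = 0.000640). Quantile normalization moved the median of all genes by 0.15 here, with 2544 called higher and 1955 lower, and rescaling by -0.14, with 1213 and 4376, against 1938 and 3026 as tested.

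**Figure D2:**
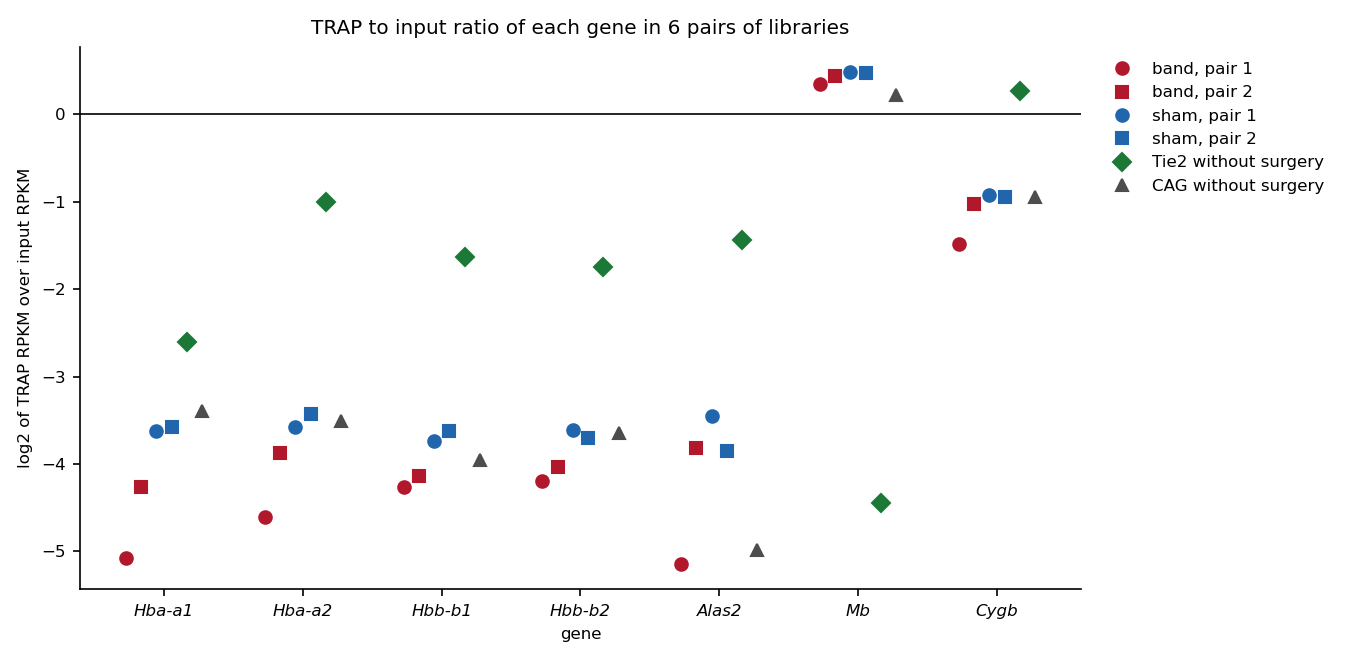
Log2 of TRAP over input RPKM for each gene in 6 pairs of libraries, where operated libraries are paired by number only for display. The 5 CAG pairs lie below 0 for the haemoglobin genes, Alas2 and Cygb and above 0 for Mb, and the Tie2 pair is at 0.0457 on the ratio scale for Mb and 1.2 for Cygb.

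Marker genes of cardiomyocytes and fibroblasts were read beside Mb and Cygb. In the sham comparison 3 of 12 cardiomyocyte markers were called higher and 3 lower, with a median log2 difference of 0.27. Tnnt2, cardiac troponin T and close to Mb in level, stood at 20312 and 18905 RPKM in sham TRAP, against 16669 and 16458 RPKM in sham input. The ratio of Mb to Tnnt2 was 1.02 and 1.09 in sham TRAP and 0.885 and 0.905 in sham input. After banding it was 0.929 and 0.868 in band TRAP and 0.832 and 0.845 in band input, again without overlap. Of the fibroblast markers, 10 of 12 were called lower in TRAP after sham surgery and 10 of 12 after banding, with medians of -0.93 and -0.93. One of those called, Pdgfra, was under 1 RPKM in all CAG TRAP libraries. Cygb, at -0.90, lay near that median after sham surgery, and at -1.21 it lay below it after banding, where Col1a1, Col1a2 and Col3a1 were the markers more negative than Cygb. Cygb relative to Dcn, a fibroblast proteoglycan, was 0.268 and 0.25 in sham TRAP and 0.253 and 0.254 in sham input. After banding it was 0.191 and 0.449 in band TRAP, on either side of 0.394 and 0.390 in band input.

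Without surgery the CAG hearts gave 1 library for each fraction, so there is no replicate check and no test. Hba-a1 stood at 53.8 RPKM in CAG TRAP and 568 RPKM in CAG input, and Hba-a2 at 14.6 RPKM in CAG TRAP and 166 RPKM in CAG input. Hbb-b1 stood at 35.3 RPKM in CAG TRAP and 548 RPKM in CAG input, and Hbb-b2 at 10.3 RPKM in CAG TRAP and 128 RPKM in CAG input. The ratios of 0.0948, 0.0878, 0.0644 and 0.0801 in that order lie near those of the sham libraries. Alas2 had 16 reads in CAG TRAP and 142 in CAG input, a ratio of 0.0316 with a counting interval of 0.0176 to 0.0530. Mb stood at 19907 RPKM in CAG TRAP and 17127 RPKM in CAG input, a ratio of 1.16. Cygb stood at 29.7 RPKM in CAG TRAP and 57.1 RPKM in CAG input, a ratio of 0.520. Past 2-fold lower on the log2(RPKM + 1) scale were the 4 haemoglobin genes and Alas2, the last with its direction set by the filter, where 8.49% of all genes were past 2-fold, 7.53% lower and 0.961% higher.

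The balance of alpha and beta chains lay in a narrow range in most libraries. The summed RPKM of the alpha genes over that of the beta genes was 0.925 and 1.57 in band TRAP, against 1.52 and 1.62 in band input. After sham surgery it was 1.59 and 1.5 in TRAP, against 1.48 and 1.42 in input. Without surgery it was 0.979 in Tie2 TRAP and 1.64 in Tie2 input, and 1.5 in CAG TRAP and 1.09 in CAG input. Band TRAP library 1, Tie2 TRAP and CAG input therefore stood apart from the other 9, which lay between 1.42 and 1.64. The ratio of the copies within a chain differed between band and sham libraries. Hba-a1 over Hba-a2 was 2.77 and 2.44 in band TRAP and 3.82 and 3.20 in band input, against 4.79 and 5.13 in sham TRAP and 4.91 and 5.68 in sham input. Hbb-b1 over Hbb-b2 was 4.33 and 4.28 in band TRAP and 4.52 and 4.62 in band input, against 3.31 and 3.69 in sham TRAP and 3.61 and 3.49 in sham input. In both fractions the band and sham libraries do not overlap, with the alpha ratio lower and the beta ratio higher after banding. CAG hearts without surgery did not line up with the sham hearts. Their alpha ratio was 3.69 in TRAP and 3.42 in input, below all sham libraries, and their beta ratio was 3.43 in TRAP, within the sham TRAP values, and 4.27 in input, above all sham libraries. These ratios were looked at after the values were seen and were not tested. They rest on telling near-identical copies apart, so they carry the uncertainty of single chain levels given above. In Tie2 input Hba-a1 over Hba-a2 was 12.2, the highest of the 12 libraries, against 4.02 in Tie2 TRAP.

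**Figure D3:**
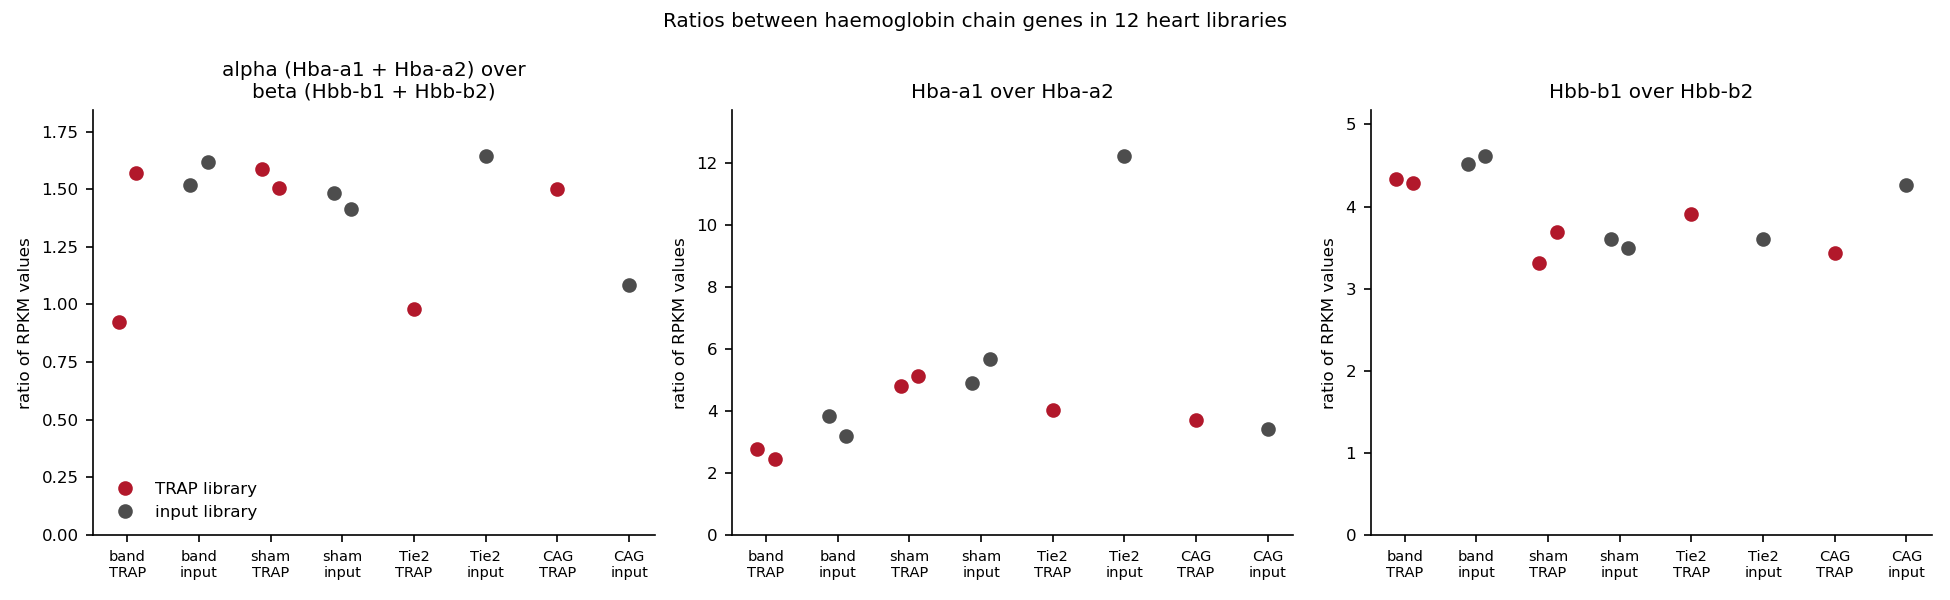
Ratios of RPKM values between haemoglobin genes in each library (axes from 0), red for TRAP and grey for input. Band libraries lie between 2.44 and 3.82 for Hba-a1 over Hba-a2, below the sham libraries at 4.79 to 5.68, the CAG libraries without surgery lie at 3.69 in TRAP and 3.42 in input, and Tie2 input stands apart at 12.2.

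Banding was set against sham surgery to ask whether the narrowed aorta moved the globins. After banding 3 haemoglobin genes were called lower in TRAP and 1 in input, and the difference between the fractions was not called for any of them. Mb and Cygb were not called in either fraction. In input RNA, Hbb-b2 was the only one of the 7 called, where 4.08% of genes were called, 1.65% lower and 2.44% higher. It stood at 110 and 132 RPKM in band input, against 223 and 229 RPKM in sham input. Both band libraries lay below both sham libraries, by 1.87-fold (log2 difference -0.90, SE 0.14, limma, adjusted p = 0.020). The call was lost without either sham input, either sham TRAP or either band input library (limma, adjusted p from 0.0582 to 0.179) and without the filter (adjusted p = 0.0650). Hba-a1, Hbb-b1 and Alas2 were also below sham in both band input libraries, at log2 differences of -0.61, -0.54 and -0.53 that missed the threshold (limma, adjusted p = 0.342, 0.107 and 0.0733). Each of the 3 was called without band TRAP library 1 (limma, adjusted p = 0.0101, 0.0138 and 0.0286) and without band TRAP library 2 (adjusted p = 0.0103, 0.0140 and 0.0290), where the estimate of spread changes and the difference does not. The Hba-a2 values overlapped between band and sham input, with a log2 difference of -0.02 and a 95% interval from -0.89 to 0.85.

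Mb was level in input, with a log2 difference of 0.01 and a 95% interval from -0.18 to 0.20. Cygb stood at 46.9 and 44.3 RPKM in band input, against 36.0 and 35.2 RPKM in sham input. The band values lay above the sham values, at a log2 difference of 0.35 with a 95% interval from 0.06 to 0.64, which missed the threshold over all genes (limma, adjusted p = 0.177). Without band TRAP library 1 or 2 it passed (limma, adjusted p = 0.0138 and 0.0141). Among the fibroblast markers read beside it, 1 of 12 was called higher in band input, Col1a1 at 0.45, and 2 lower, Fbln1 at -0.83 and Islr at -0.78.

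In TRAP RNA, 3 of the 7 genes were called lower after banding and none higher, where 3.77% of genes were called, 1.56% lower and 2.21% higher. Hba-a1 stood at 21.7 and 47.3 RPKM in band TRAP, against 103 and 103 RPKM in sham TRAP. Hbb-b1 stood at 26.0 and 34.4 RPKM in band TRAP, against 60.2 and 64.6 RPKM in sham TRAP. Hbb-b2 stood at 6.0 and 8.04 RPKM in band TRAP, against 18.2 and 17.5 RPKM in sham TRAP. Band and sham libraries do not overlap for any of the 3, which with 2 libraries a side is a description and no added support for the calls. Their log2 differences were -1.65 (SE 0.31), -1.04 (SE 0.15) and -1.25 (SE 0.14), or 3.15, 2.05 and 2.37-fold lower (limma, adjusted p = 0.0384, 0.0156 and 0.00694). The Hba-a1 call was lost without any 1 of the sham TRAP, sham input or band input libraries (limma, adjusted p from 0.0825 to 0.218), and its difference was -1.11 without band TRAP library 1 and -2.20 without band TRAP library 2. The Hbb-b1 call was lost without either sham input library or either sham TRAP library (limma, adjusted p from 0.0512 to 0.15), and the Hbb-b2 call without sham TRAP library 1 or 2 (adjusted p = 0.0808 and 0.0763). Without the filter on low values the Hba-a1 and Hbb-b1 calls were lost too (limma, adjusted p = 0.15 and 0.0795).

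Hba-a2 and Alas2 were lower in band TRAP in both libraries without passing the test. The log2 differences were -0.70 with a 95% interval from -1.57 to 0.17 for Hba-a2 and -0.38 with an interval from -0.68 to -0.08 for Alas2 (limma, adjusted p = 0.357 and 0.159). Alas2 stood at 0.155 and 0.309 RPKM in band TRAP, against 0.693 and 0.517 RPKM in sham TRAP. At such levels the pseudocount of 1 RPKM flattens the difference, which reached -1.38 over 17 alternatives, outside that interval. Hba-a2 passed without band TRAP library 2, at -1.30 (limma, adjusted p = 0.00957). Mb differed by -0.08, with an interval from -0.27 to 0.11, and Cygb by 0.03, with an interval from -0.25 to 0.32. Mb stood at 18838 and 20288 RPKM in band TRAP, against 20678 and 20553 RPKM in sham TRAP, with both band values the lower. Cygb stood at 16.8 and 21.8 RPKM in band TRAP, against 19.0 and 18.3 RPKM in sham TRAP, and the groups overlapped.

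**Figure D4:**
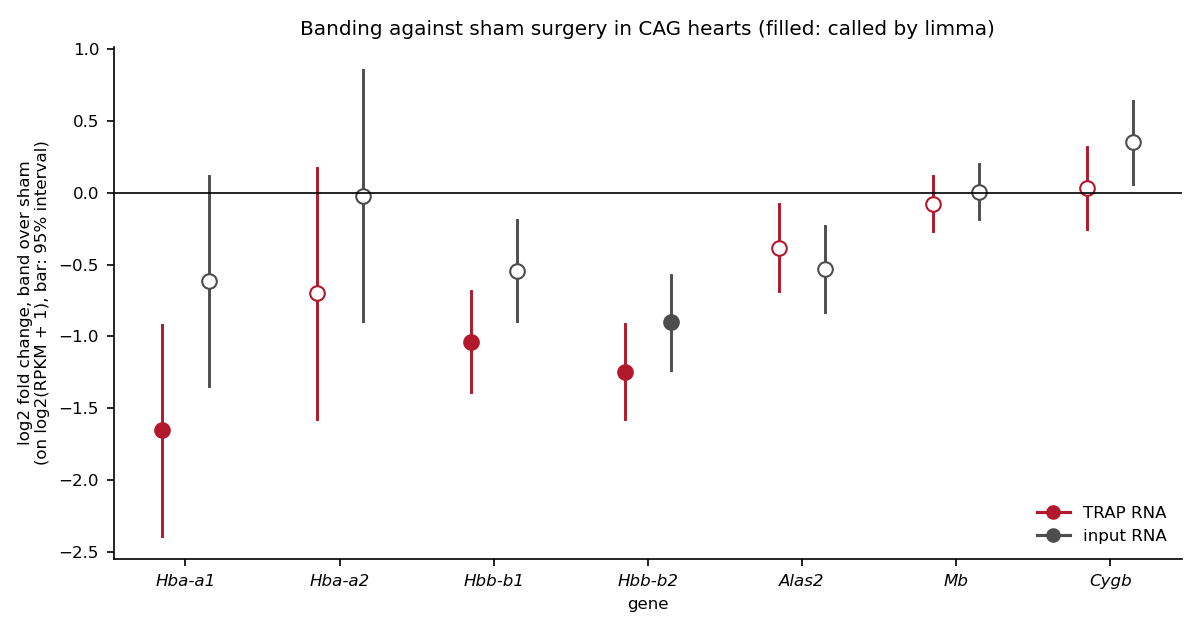
Log2 fold change of band over sham on log2(RPKM + 1) in TRAP (red) and input RNA (grey) of CAG hearts, with 95% intervals from limma and filled points for called genes. Hba-a1, Hbb-b1 and Hbb-b2 in TRAP and Hbb-b2 in input are filled, and the points of Mb lie at -0.08 and 0.01.

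Whether banding changed TRAP relative to input was tested as an interaction. For Hba-a1 it was -1.04 on the log2 scale with a 95% interval from -2.08 to -0.0028, and for Hba-a2, Hbb-b1 and Hbb-b2 it was -0.68, -0.49 and -0.34. None of the 11654 genes was called by limma (0%), while 557 had an unadjusted p under 0.05, and limma voom on whole reads called 0 with 471 under 0.05. Hba-a1 had an adjusted p of 0.992 by limma. Without band TRAP library 2, which leaves the lower of that pair, its interaction was -1.58 (limma, adjusted p = 0.0111). The interactions of Mb, Cygb and Alas2 were -0.08, -0.32 and 0.15 (limma, adjusted p = 0.994, 0.992 and 0.994).

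In Tie2 hearts, Mb and Cygb each went the other way than in CAG hearts. Mb stood at 768 RPKM in Tie2 TRAP and 16799 RPKM in Tie2 input, 21.9-fold lower. On the log2(RPKM + 1) scale that is -4.45, inside the range of the 12 cardiomyocyte markers, which ran from -5.51 to -2.07 with a median of -4.18. Only 0.223% of genes had a lower ratio. Cygb stood at 76.8 RPKM in Tie2 TRAP and 63.9 RPKM in Tie2 input, a ratio of 1.2 with a counting interval of 1.16 to 1.24. Its log2 value of 0.26 lay below the median of all genes, 0.48, and at the low end of the 12 fibroblast markers, which ran from 0.15 to 2.12. With the rescaling, the Cygb value was 0.05. Cygb thus exceeded its own input by less than the median gene did, and by less than the endothelial markers, whose median was 3.38.

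The red cell genes were lower in Tie2 TRAP than in Tie2 input, by less than in CAG hearts. Hba-a1 stood at 241 RPKM in Tie2 TRAP and 1472 RPKM in Tie2 input, and Hba-a2 at 60.0 RPKM in Tie2 TRAP and 120 RPKM in Tie2 input. Hbb-b1 stood at 245 RPKM in Tie2 TRAP and 758 RPKM in Tie2 input, and Hbb-b2 at 62.7 RPKM in Tie2 TRAP and 210 RPKM in Tie2 input. Alas2 stood at 1.95 RPKM in Tie2 TRAP and 5.29 RPKM in Tie2 input, on 154 and 542 reads. The ratios were 0.164, 0.499, 0.323, 0.299 and 0.369 in that order, all above the 5 CAG ratios of the same gene. Past 2-fold on the log2(RPKM + 1) scale were Hba-a1, Hbb-b1, Hbb-b2, Alas2 and Mb, 5 of the 7 genes and all lower. Hba-a2 fell just short. Of all genes 44.6% were past 2-fold, 13.1% lower and 31.5% higher. The median of all genes on that scale was 0.48 in the Tie2 pair and -0.26 in the CAG pair without surgery. The ratios above are not corrected for that shift. With 1 library of each kind, the difference between Tie2 and CAG was not tested.

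Set against CAG TRAP without surgery, Tie2 TRAP held 4.48 times as much Hba-a1, 4.12 times Hba-a2, 6.95 times Hbb-b1 and 6.11 times Hbb-b2. Alas2 was 23.6 times higher in Tie2 TRAP, with a counting interval of 14.1 to 42.3, since CAG TRAP held 16 reads. Cygb was 2.59 times higher in Tie2 TRAP and Mb 25.9-fold lower. Past 2-fold were 7 of the 7, 6 higher and 1 lower, where 55.7% of genes were past 2-fold, 44.4% higher and 11.3% lower, and the median of all genes was 0.85. Among the input libraries, Tie2 input held 2.59 times the Hba-a1 and 0.726 times the Hba-a2 of CAG input. Endothelial, macrophage and fibroblast markers moved with the haemoglobin genes here, with medians of 4.05, 3.54 and 2.22 on the log2 scale. Hba-a1 was at 2.14 and Hbb-b1 at 2.76 on that scale. Of the fibroblast markers 12 of 12 were past 2-fold higher, so the rise was not particular to endothelial and macrophage markers. Of the cardiomyocyte markers 12 of 12 were past 2-fold lower, with a median of -3.87. Tie2-driven Cre is known to be active in blood cell lineages as well as endothelium, and its part in these levels was not tested.

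**Figure D5:**
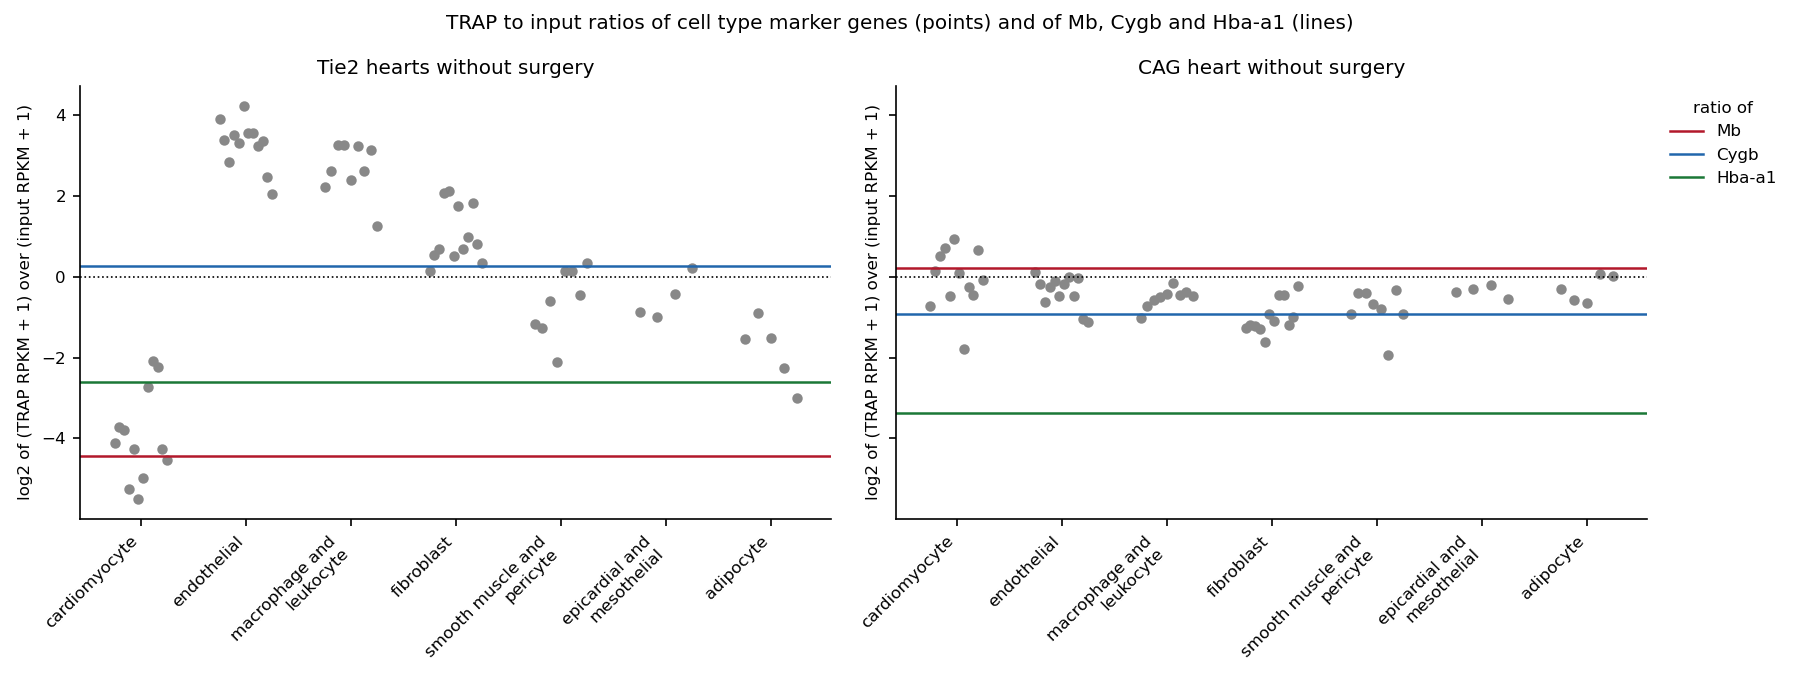
Log2 of (TRAP RPKM + 1) over (input RPKM + 1) for the tested genes of 7 cell type marker lists (points) in the Tie2 pair and in the CAG pair without surgery, with lines at the values of Mb, Cygb and Hba-a1. In Tie2, Mb at -4.45 runs through the cardiomyocyte markers and Cygb at 0.26 along the low edge of the fibroblast markers.

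Over the 8 groups, Cygb was highest in Tie2 TRAP, followed by Tie2 input at 63.9 RPKM, CAG input without surgery at 57.1 RPKM, band input at 45.6 ± 1.85 RPKM (SD, n = 2) and sham input at 35.6 ± 0.569 RPKM (SD, n = 2). Below these came CAG TRAP without surgery at 29.7 RPKM, band TRAP at 19.3 ± 3.53 RPKM (SD, n = 2) and sham TRAP at 18.7 ± 0.492 RPKM (SD, n = 2), and the last pair overlapped. Each library without surgery exceeded its operated CAG counterpart of the same fraction. Adipocyte markers were also higher without surgery, with the 5 genes summing to 120 RPKM in CAG TRAP and 123 RPKM in CAG input, against 1.69 to 6.44 RPKM in operated libraries. In Tie2 hearts they summed to 13.8 RPKM in TRAP and 112 RPKM in input, where Cygb stood at 76.8 and 63.9 RPKM. Their part in the Cygb level was not tested. For Mb the order was sham TRAP, CAG TRAP, band TRAP, CAG input, Tie2 input, band input, sham input and Tie2 TRAP, with band and sham input overlapping. The haemoglobin genes had all 4 input groups above all 4 TRAP groups, and Tie2 TRAP as the highest of the TRAP groups.

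The other globins were close to absent. Of 9 listed genes 7 were in the table and none reached 1 RPKM, with sums of at most 0.860 RPKM. The embryonic chains Hba-x and Hbb-y and the gene Hbb-bh2 had 0 reads in each library, where a count of 0 allows up to 3 reads. Of 22 other red cell genes 20 were in the table and 5 were tested. In TRAP against input, 1 was called higher and 2 lower after sham surgery, and likewise after banding, but both lower ones were under 1 RPKM in all 5 CAG TRAP libraries and passed the filter through other libraries, so their direction was set in the same way as that of Alas2. Slc25a37, the mitochondrial iron importer, is one of them, with log2 differences of -0.68 after sham surgery and -0.42 after banding given as a description. Rhd, a blood group gene, did not follow the haemoglobin genes. It was called higher in TRAP, at 0.66 after sham surgery and 0.93 after banding, and fell to 0.324 RPKM in Tie2 TRAP against 4.07 RPKM in Tie2 input. The anion exchanger Slc4a1, a defining red cell membrane gene, had 0.0249 and 0.0316 RPKM in sham TRAP, against 0.599 and 0.792 RPKM in sham input, and was not tested for its low level.

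Apart from Alas2, the list of haem synthesis holds enzymes and the transporters Slc25a38 and Abcb10. Of 10 genes tested, 5 were called higher in sham TRAP and 1 lower, with a median of 0.21, and 3 higher and 1 lower in band TRAP. Slc25a38, a mitochondrial glycine carrier, was among those higher, by 0.49 (limma, adjusted p = 0.0188). Fech, which inserts iron, was higher by 0.42 (limma, adjusted p = 0.0112). Cpox was the one called lower, at -0.39. Alas1, the form of the first enzyme that other tissues use, was at 25.3 and 24.3 RPKM in sham TRAP, against 31.7 and 32.6 RPKM in sham input, and missed the threshold (log2 difference -0.36, limma, adjusted p = 0.0675). In Tie2 hearts Alas1 had 10.4 RPKM in Tie2 TRAP against 50.1 RPKM in Tie2 input. None of the 10 was called between band and sham in either fraction.

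Of the genes that bind, export or break down haem, 1 of 10 tested was called higher and 4 lower in sham TRAP, with a median of -0.42, and the same counts after banding. One of the 4, Cd163, was under 1 RPKM in all CAG TRAP libraries. Hmox1, the inducible haem oxygenase, was at 2.88 and 2.90 RPKM in sham TRAP, against 5.85 and 5.75 RPKM in sham input. It was the one gene of the list called between operations. Its band input libraries held 11.9 and 10.5 RPKM, above the sham input values just given, and its band TRAP libraries held 5.94 and 4.59 RPKM, above those of sham TRAP. The log2 differences were 0.84 and 0.68 (limma, adjusted p = 0.0165 and 0.0337), opposite in sign to those of the haemoglobin genes. Macrophage and leukocyte markers were higher in the same comparison. In band against sham input 4 of 9 were called higher and none lower, Cd68 at 0.82, Itgam at 0.71, Cd14 at 0.66 and Fcgr1 at 0.56, and in TRAP 1 of 9, Fcgr1 at 0.50. The listed genes summed to 522 and 425 RPKM in band input, against 387 and 388 RPKM in sham input, and to 235 and 215 RPKM in band TRAP, against 217 and 221 RPKM in sham TRAP. Their part in the Hmox1 difference was not tested. Cd163, the macrophage receptor for haemoglobin bound to haptoglobin, was at 15.2 RPKM in Tie2 TRAP and 2.76 RPKM in Tie2 input. Blvrb, a biliverdin reductase, was at 85.0 RPKM in Tie2 TRAP and 33.0 RPKM in Tie2 input. Among the 5 reductases that serve globins or other haem proteins, Cyb5r3, which reduces oxidised haemoglobin in red cells, was at 178 RPKM in Tie2 TRAP and 39.1 RPKM in Tie2 input. It was called lower in sham and band TRAP of CAG hearts, at -0.26 and -0.44 (limma, adjusted p = 0.0403 and 0.00567).

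Across the 12 libraries, on log2(RPKM + 1), the 4 haemoglobin genes and Alas2 correlated with each other at Pearson's r between 0.955 and 0.997. Mb had an r of -0.107 to -0.187 with them and Cygb 0.649 to 0.762, and Mb with Cygb was at -0.578. The libraries fall into input, CAG TRAP and Tie2 TRAP, which these values share, so they are a description. Leaving the 7 themselves out, the tested genes most like Mb were Hrc, a calcium-binding protein of the sarcoplasmic reticulum, Adssl1, the muscle adenylosuccinate synthase, and Atp5g1, a subunit of ATP synthase, each at an r of 0.99 or more. Those most like Cygb were Calr, an endoplasmic reticulum chaperone, Bgn, a matrix proteoglycan, and Lsp1, a leukocyte protein, each at 0.98. For Hbb-b1 they were Zfp952, 4933439F18Rik and Prkrir at 0.99, 0.98 and 0.98, for Hba-a1 Phldb1, Gm11560 and Ybx1 at 0.97, and for Alas2 Nfix, 2610507B11Rik and Ybx1 at 0.98. Of these genes and the 3 most like each other haemoglobin gene, none was on the red cell list.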

How the data were processed

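RPKM values for 34306 genes in 12 libraries were deposited by the authors, each gene with the identifier and length of 1 transcript. Per the submitters' processing notes, the build was NCBIM37 and the tools included HTSeq 0.5.3, TopHat 1.4 and CASAVA 1.8.2, while settings and the treatment of reads shared by near-identical genes are not given in the sources used here. Libraries were poly(A) selected and do not mark strand, per the labels' protocols. Cygb and Prcd, Alas2 and Apex2, and Mb and Apol6, which overlap on GRCm38.p6, may therefore share reads. Apex2 lay at 0.276 to 0.926 RPKM, where Alas2 was under 1 RPKM in CAG TRAP. Apol6 was at 0.455 RPKM or less, far below Mb, and Prcd had no row. The columns matched the conditions of the later deposit, and other deposits of the series were not analysed here. No column belonged to other samples (0). Whole reads were recovered from RPKM times length for 185883 of 185883 values up to 1000 reads, within 0.02 reads. The counts behind those values are therefore known. Larger counts, such as those of Mb, carry the rounding of the deposited values. Counting intervals are exact at 95% and cover counting error only.

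Values were tested as log2(RPKM + 1) with limma 3.58.1 in R 4.3.3, two-sided, with a variance trend, in 1 fit over 12 libraries with a mean for each group (4 residual degrees of freedom, prior 3.02). A gene was kept if 2 or more libraries reached 1 RPKM, and p-values were adjusted by the Benjamini-Hochberg method over 11654 genes. Comparisons with 1 library a side had no test, and a 2-fold difference on that scale was used to count genes. Named genes were the members, the 3 genes most like each and, from each list, up to 3 called genes with the largest differences per comparison and the 3 most abundant. Slc4a1, Cpox, Abcb10, Pdgfra, Hba-x, Hbb-y and Hbb-bh2 fall outside that rule and were chosen after their values were seen, as were the chain ratios. The members and lists were chosen with earlier results of these data known. The fit was tested on simulated data. Libraries of the same number did not deviate together (correlations of deviations from -0.43 to 0.03). In band and sham TRAP they deviated in opposite directions, at -0.43. Alternatives were the pseudocount, the filter, normalization, a replicate block, fewer libraries and limma voom on whole reads, the last added after seeing the data. Sequences and motifs came from the RefSeq promoter table with Python. Some genes of the lists are not reported here by name.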

Additional observations from a re-analysis of the deposited data

Results flagged for a closer look

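The TRAP to input ratio of Mb was 0.0457 in Tie2 hearts, against 1.16 to 1.4 in the 5 pairs of CAG libraries, so its direction differed between the lines. The ratio of Cygb was 1.2 in Tie2 hearts, against 0.358 to 0.528 in the CAG pairs, and also differed in direction from its own input. Relative to the median gene, Cygb was lower in both lines. The share of genes with a lower ratio than Cygb was 42.4% in Tie2 and 1.78 to 9.48% in the CAG pairs. Tie2 had 1 library of each fraction, and neither difference was tested.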

How the results depend on the processing

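Of the called differences between TRAP and input, those of the haemoglobin genes and Cygb kept their direction and their call under all 17 alternatives after either operation, as did Mb after sham surgery. Calls between band and sham were less stable, as given in the text, and the cause was not tested. The number of genes called in band TRAP against band input was 3284 with a filter of 5 RPKM. Between band and sham it was 265 in input and 263 in TRAP with a replicate block, which changed no call of the 7 genes, and 207 in TRAP with no filter. The interaction had 2 called genes with a pseudocount of 0.1 RPKM and 2 with no filter. Past 2-fold in CAG hearts without surgery were 2433 genes with a pseudocount of 0.1 RPKM. Leaving out each library in turn gave 1917 to 6388 called genes for sham TRAP against input, 2779 to 6269 for band TRAP against input, 26 to 1511 for band against sham in input, 33 to 1971 in TRAP and 0 to 197 for the interaction, and where it left 1 library in a group that library was taken to vary like the others. With a replicate block the 5 comparisons had 4233, 4555, 265, 263 and 0 calls. With the numbers of the sham TRAP libraries crossed, added after seeing the data, they had 4736, 5081, 408, 362 and 0.

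Small differences changed sign. Mb between band and sham input was -0.028 with quantile normalization and -0.0015 with rescaling, and from -0.0021 to 0.014 on leaving out a library. Hba-a2 between band and sham input ran from -0.31 to 0.27 and Cygb between band and sham TRAP from -0.14 to 0.21 on leaving out a library. The Alas2 interaction was -0.50 with a pseudocount of 0.1 RPKM and -0.74 by limma voom. The planned edgeR test was not run, because the deposited values are RPKM, and limma voom took its place. With 12 to 50 reads of Alas2 in CAG TRAP libraries, depth limits that gene most.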
